A study of Mus musculus with 3 samples.

Results

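MHC class II presentation genes are the genes that a professional antigen-presenting cell uses to display fragments of ingested protein to CD4+ T cells. The 7 genes described here are H2-Aa, H2-Ab1, H2-Eb1, H2-DMa, H2-DMb1, Cd74 and Ciita, chosen by symbol out of 32285 genes, and all 7 were present in each library. They were followed cell by cell in the synovium and infrapatellar fat pad of mouse knees. In DMM surgery the medial meniscus is made unstable, and the joint goes on to develop osteoarthritis. The DMM 1 week library came from wild type mice operated on at 2 months of age and harvested 1 week later. The DMM 2 months library came from wild type mice operated on at the same age and harvested 2 months later. The control library came from wild type mice harvested at 2 months of age, so the mice of the DMM 2 months library were also older. Each library combined the tissue of 5 to 10 mice. The sources used here give no strain, sex or sham operation. There was 1 library per group and therefore no test between groups. Every interval below is a 95% interval that covers counting error only and not the spread between mice.

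Class II genes work as a chain of steps. CIITA is the co-activator that turns on the whole set. H2-Aa and H2-Ab1 encode the alpha and beta chains of the I-A molecule, and H2-Eb1 encodes the beta chain of I-E. Cd74 encodes the invariant chain, which fills the peptide groove during transport, and the H2-DM dimer, made from H2-DMa with an H2-DM beta chain, exchanges the remnant of the invariant chain for antigen peptide in the endosome. Macrophages, dendritic cells and B cells are the textbook carriers of class II, and interferon gamma can induce it in endothelial cells and fibroblasts.

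Of the 7 genes, 5 lie close together on chromosome 17 in the GENCODE vM21 annotation of GRCm38. H2-DMa spans 34119541 to 34139101, H2-DMb1 34153072 to 34160230, H2-Ab1 34257689 to 34269419 and H2-Eb1 34305867 to 34316674, all on the plus strand, and H2-Aa spans 34282744 to 34287823 on the minus strand. Ciita lies on the plus strand of chromosome 16, from 10480059 to 10528418. The class II promoters are known for an X box and a Y box, bound by the RFX and NF-Y complexes on which CIITA docks. Of the members matched in the promoter table, only H2-Aa and H2-Eb1 held both boxes in a stretch outside the gene as GENCODE draws it. Their upstream stretches with both boxes are shown. They are RefSeq sequences on GRCm38.p6, written 5′ to 3′ on the strand of the gene, with the X letters GNAACT and then the Y letters TGATTGG in capitals.
H2-Aa, chr17:34287857-34287914, minus strand: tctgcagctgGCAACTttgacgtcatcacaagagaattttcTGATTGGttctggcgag
H2-Eb1, chr17:34305766-34305822, plus strand: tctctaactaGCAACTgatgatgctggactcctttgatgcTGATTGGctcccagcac
The boxes are separated by 25 bases upstream of H2-Aa and by 24 upstream of H2-Eb1. The letters were chosen after the sequences had been seen. Searched on both strands in the 250 bases upstream of 32851 RefSeq start sites, the X letters were found in 37.3% and the Y letters in 7.23%. The X letters followed by the Y letters at 10 to 30 bases were found in 52 (0.158%). H2-DMb1, with the pair inside the gene as GENCODE draws it, and the relative H2-Eb2 also hold the pair. Neither of the 2 windows of H2-DMa does. H2-Ab1, Cd74 and Ciita were not matched in the promoter table.

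After filtering, 12316, 9782 and 8099 cells were kept from the DMM 1 week, DMM 2 months and control libraries, with median depths of 12920, 13543 and 10871 UMIs (unique molecular identifiers, counted RNA molecules). Cells were assigned by marker UMIs, and levels are given as CPM, the UMIs of a gene per 1000000 UMIs of the class in a library. Macrophages had at least 3 C1qa UMIs and were split into cells without Vsig4, a receptor of resident lining macrophages, and cells with at least 2 Vsig4 UMIs. Macrophages lacking Vsig4 numbered 1921, 658 and 510 in the DMM 1 week, DMM 2 months and control libraries, and Vsig4-positive macrophages numbered 38, 208 and 515. Other myeloid cells had at least 3 Tyrobp UMIs and no C1qa, endothelial cells had Cdh5 but no Ptprc, and fibroblasts had Pdgfra but neither Ptprc nor Cdh5. In the same order of libraries, the other myeloid gate held 1282, 954 and 117 cells, the endothelial gate 1784, 1157 and 1270, and the fibroblast gate 4748, 5317 and 3781. All 7 macrophage markers were detected in both macrophage classes, all 6 endothelial markers in endothelial cells and all 5 fibroblast markers in fibroblasts, in every library. Cells that passed more than 1 gate numbered 60, 38 and 65, and the libraries shared 28 to 33 barcodes pairwise. "Summed class II" stands for Cd74, H2-Aa, H2-Ab1 and H2-Eb1 together.

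**Figure D1:**
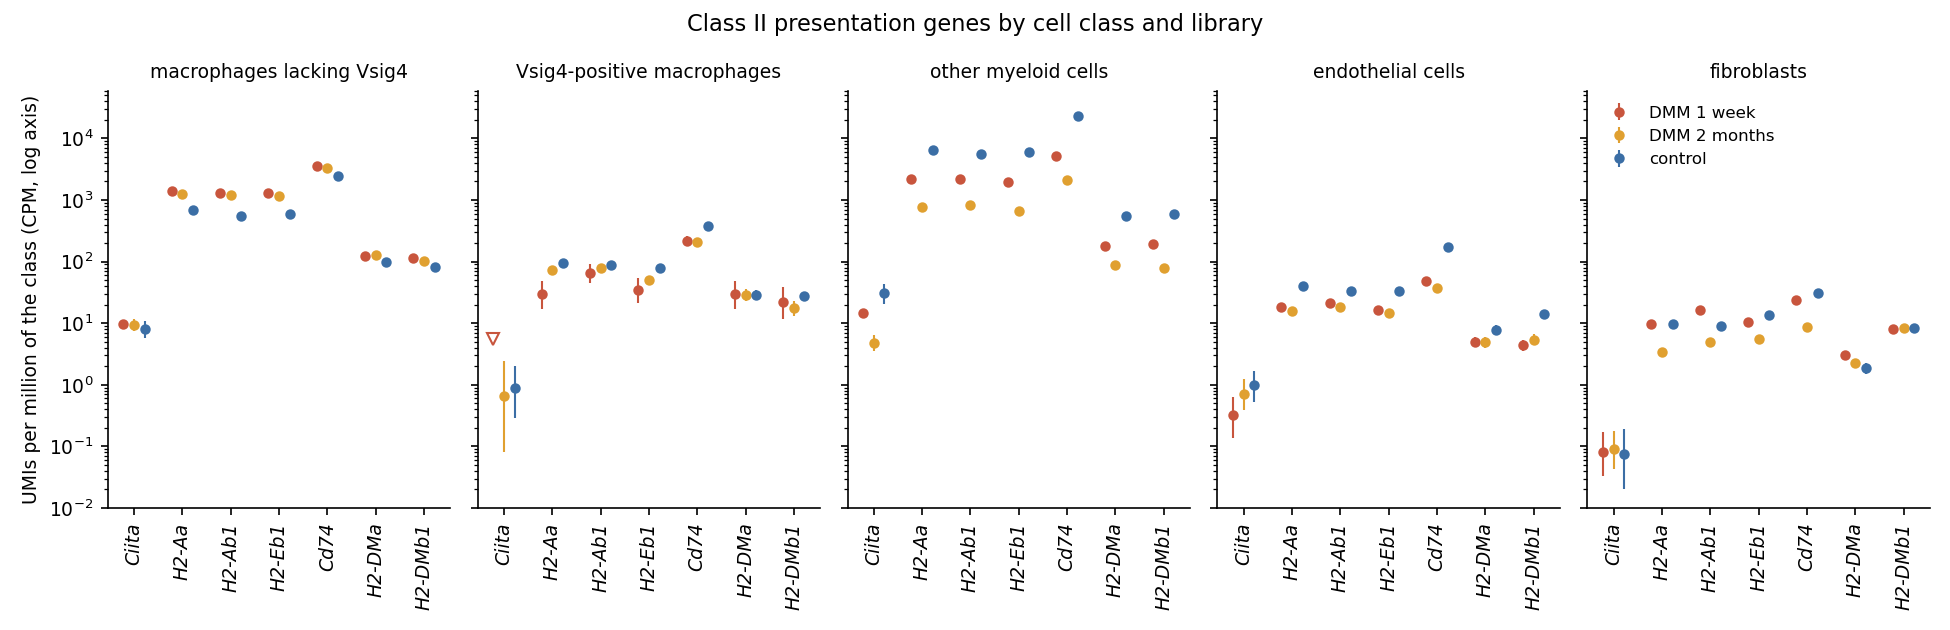
Level of each class II gene in each cell class, in CPM on a log axis, for the DMM 1 week, DMM 2 months and control libraries. Points are sums over the cells of a class, bars are 95% Poisson intervals, and the open triangle is the limit of 3 UMIs where no Ciita UMI was counted. The operated libraries lie above the control in macrophages lacking Vsig4 and below it in other myeloid cells and endothelial cells.

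Macrophages lacking Vsig4 carried more class II RNA in both operated libraries than in the control. The antigen-binding chains differed most, the invariant chain and H2-DM differed less, and Ciita could not be told apart. H2-Ab1 stood at 1303 CPM at 1 week and 1218 CPM at 2 months, against 544 CPM in the control, ratios of 2.39 (2.30 to 2.49) and 2.24 (2.15 to 2.33). Its partner H2-Aa stood at 1404 and 1276 CPM, against 683 CPM in the control (ratios 2.06 and 1.87), and H2-Eb1 at 1304 and 1162 CPM, against 591 CPM (2.21 and 1.97). These chains therefore differed by similar factors in each operated library.

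Cd74, the most abundant of the set, stood at 3505 CPM at 1 week and 3251 CPM at 2 months, against 2419 CPM in the control, ratios of 1.45 (1.42 to 1.48) and 1.34 (1.32 to 1.37). H2-DMa stood at 121 and 130 CPM against 97.0 CPM in the control (1.25 and 1.34), and H2-DMb1 at 116 and 103 CPM against 82.6 CPM (1.40 and 1.25). Ciita was rare, at 9.61 and 9.32 CPM against 8.001 CPM in the control, and the intervals of its ratios, 0.857 to 1.72 at 1 week and 0.791 to 1.74 at 2 months, include no difference. Counted at 2-fold or more, 3 of the 7 genes were higher at 1 week, where 8.62% of the 11781 genes compared in this class were, and 1 of 7 at 2 months, where 4.04% of 10610 were. None of the 7 was 2-fold lower in either comparison (9.77% and 3.85% of genes were). The median log2 ratio of the 7 was 0.54 at 1 week and 0.43 at 2 months, beside -0.04 and 0.01 over all genes compared. Summed class II came to 7516 and 6907 CPM against 4237 CPM in the control, ratios of 1.77 (1.75 to 1.80) and 1.63 (1.61 to 1.66).

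Other cells' markers moved with this result. The summed level of 4 monocyte markers was 279 and 254 CPM in the operated libraries, against 72.0 CPM in the control, with all 4 detected in each. The sum of 5 granulocyte markers was 734 and 4550 CPM against 92.5 CPM in the control, again with all 5 detected. The sum of 7 dendritic cell markers was 38.3 and 62.9 CPM against 26.0 CPM, with all 7 detected in the operated libraries and Clec9a and Ccr7 at 0 in the control. With the cells holding a UMI of the dendritic growth factor receptor Flt3 left out, summed class II was 6863 and 6309 CPM against 3852 CPM in the control. The part of the other markers in the result was not tested. The level also depended on where the macrophage gate stood. Cells with exactly 3 C1qa UMIs had 8154, 754 and 4350 CPM of summed class II at 1 week, at 2 months and in the control (48, 20 and 46 cells), and cells just outside, with 2 C1qa UMIs, had 1624, 404 and 1596 CPM.

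Class II RNA was concentrated in a minority of these macrophages. With each cell thinned to 3000 UMIs, 22.9% (21.0 to 24.8; 429 of 1876) of macrophages lacking Vsig4 at 1 week and 19.2% (16.2 to 22.5; 122 of 636) at 2 months devoted at least 1% of their UMIs to summed class II, against 10.9% (8.12 to 14.1; 48 of 442) in the control. The unthinned shares were 23.1% and 19.3% against 11.2% in the control. Among these class II-high cells the median was 120 and 103 class II UMIs of 3000, against 98.5 in the control. The remaining cells averaged 2.16 and 1.67 UMIs, against 2.10 in the control. The share of high cells thus differed by more than the level within them. At a stricter limit of 3% of UMIs the shares were 14.4% and 10.7%, against 6.11% in the control. Ciita was found in 2.72% and 3.14% of the thinned cells, against 2.26% in the control, while the same depth gave 0.0212% and 0.0383% in fibroblasts of the operated libraries and 0 of 3660 control fibroblasts, which allows a share of up to 0.0820%.

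**Figure D2:**
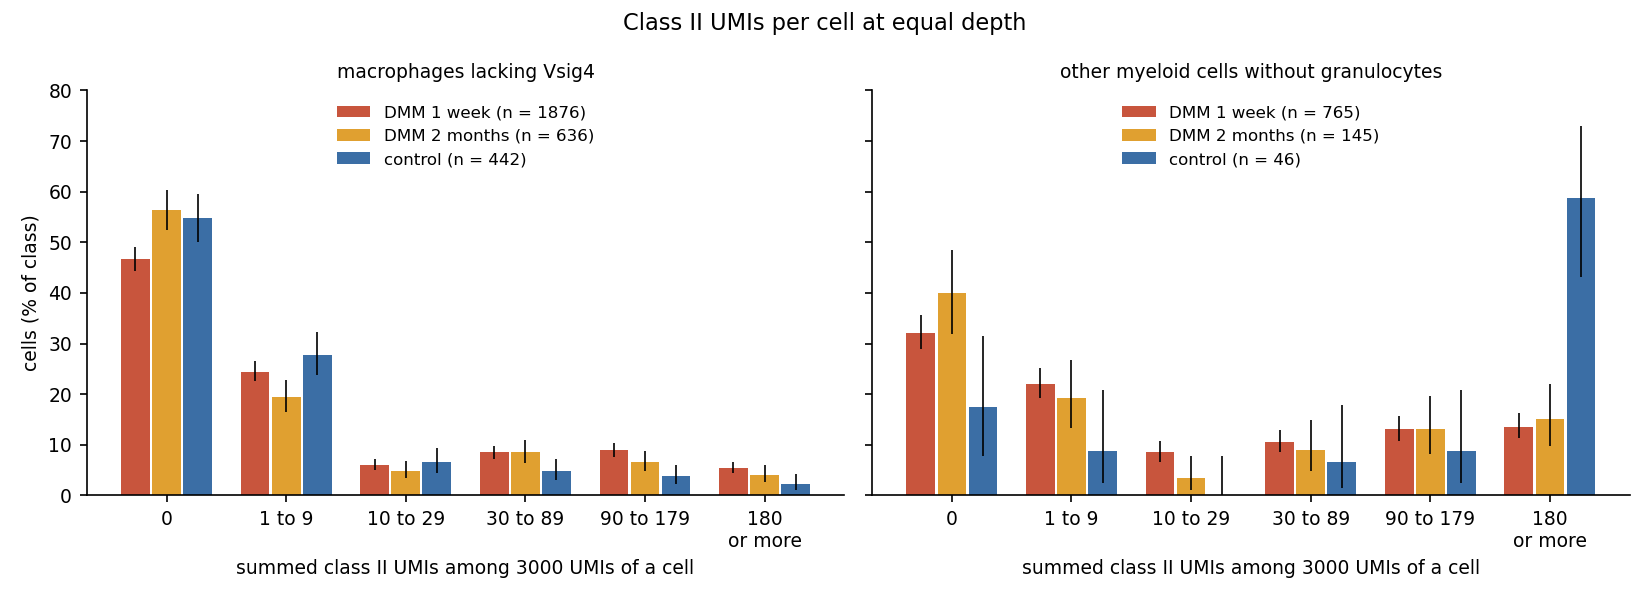
Share of cells, in percent of a class, by the number of summed class II UMIs among 3000 UMIs of the cell, for macrophages lacking Vsig4 and for other myeloid cells without granulocytes, in the DMM 1 week, DMM 2 months and control libraries. Bars carry exact 95% intervals. In other myeloid cells, 58.7% of the 46 control cells reach 180 or more, against 13.6% and 15.2% in the operated libraries.

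Class II RNA was several times higher in macrophages that also held RNA of Ccr2, the chemokine receptor of monocytes that enter tissue from blood. This split was chosen after the values had been seen. Cells with a Ccr2 UMI made up 49.1% (46.8 to 51.4) of macrophages lacking Vsig4 at 1 week and 27.4% (24.0 to 30.9) at 2 months, against 10.2% (7.71 to 13.2) in the control. At 3000 UMIs a cell these shares were 34.0% and 21.7%, against 9.05% in the control. Fibroblasts, which should lack the gene, held a Ccr2 UMI in 1.45% and 0.658% of cells, against 0.688% in the control. Their median depth was 16492 and 16085 UMIs, against 13153 in the control, and that of the macrophages was 10080 and 11528 UMIs, against 9196.5.

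Within cells with Ccr2, summed class II was not higher after DMM. It was 14295 CPM at 1 week and 20354 CPM at 2 months, against 25004 CPM in the 52 such control cells, ratios of 0.572 (0.562 to 0.582) and 0.814 (0.799 to 0.830). Within cells without Ccr2 it was 1803 and 1738 CPM, against 1743 CPM in the control, ratios of 1.03 (1.01 to 1.06) and 0.997 (0.969 to 1.03). That near equality of the sum covered opposite differences of its genes. In cells without Ccr2, Cd74 was 884 and 857 CPM against 1077 CPM in the control (0.821 and 0.796), while H2-Ab1 was 307 and 299 CPM against 211 CPM (1.45 and 1.42). H2-Aa (1.31 and 1.24) and H2-Eb1 (1.40 and 1.33) followed H2-Ab1. Ciita, with 25 and 12 UMIs against 20 in the control, was at 0.458 (0.244 to 0.870) and 0.437 (0.195 to 0.939). In cells with Ccr2 all 7 genes were lower than the control at 1 week, from 0.456 for H2-DMa to 0.749 for H2-Ab1. At 2 months H2-Ab1 was at 1.09 (1.03 to 1.14) and the other 6 were between 0.678 and 0.905, with the interval of Ciita (0.453 to 1.28) including no difference.

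Cells with Ccr2 supplied 45.7% of all UMIs of the class at 1 week and 27.8% at 2 months, against 10.7% in the control. With the levels of each library weighted by the control's shares, the class would have stood at 3142 CPM at 1 week and 3734 CPM at 2 months, against 4237 CPM in the control. The order of the libraries turned round under this weighting. With the 47, 13 and 6 Flt3 cells of DMM 1 week, DMM 2 months and control left out, it gave 2813 and 3380 CPM against 3852 CPM. That repeat rests on nearly the same cells and the same split, so it is not separate evidence. Ccr2 was itself among the genes most like class II, so weighting by it is not an independent check. Splits by other genes, also chosen after seeing the data, did not all bring the operated libraries below the control. In cells without Spp1 summed class II was 15063 and 10474 CPM against 3998 CPM in the control, with 10951 and 8937 CPM against 4359 CPM in cells without Gpnmb, and 7636 and 7001 CPM against 4394 CPM in cells with Mrc1. In cells with Spp1 or with Gpnmb it was lower than in the control, at 5834 and 3666 CPM against 8841 CPM with Spp1 (21 control cells), and at 2322 and 1748 CPM against 3712 CPM with Gpnmb. Among cells of at least 3000 UMIs, 39.6% of those with Ccr2 at 1 week and 49.2% at 2 months had at least 1% class II UMIs, against 47.1% (32.9 to 61.5) in the control. Among cells without Ccr2 these shares were 6.14% and 7.41%, against 6.39% in the control, with overlapping intervals.

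**Figure D3:**
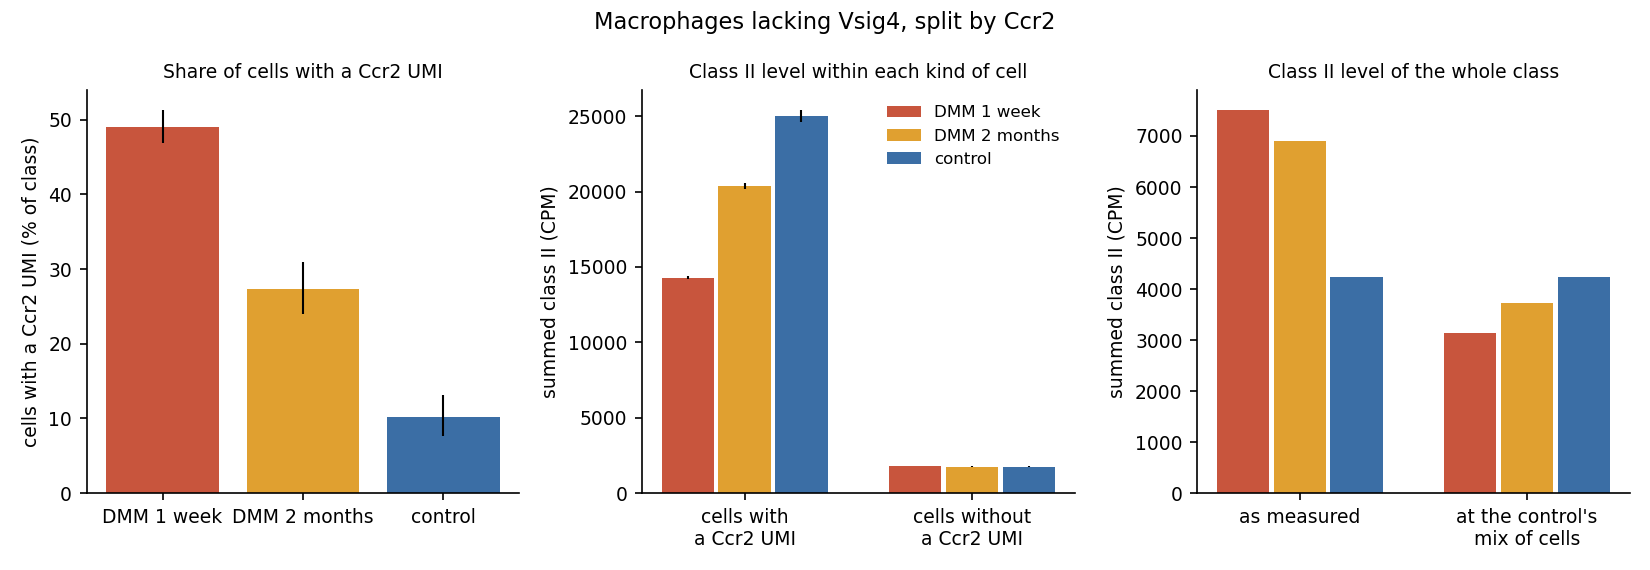
Macrophages lacking Vsig4, split by whether a Ccr2 UMI was counted, in the DMM 1 week, DMM 2 months and control libraries. The left panel gives the share of cells with Ccr2 in percent, the middle panel the summed class II level of each kind of cell in CPM, both with 95% intervals, and the right panel the level of the whole class in CPM as measured and at the control's mix. The operated libraries stand above the control as measured and below it at the control's mix.

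Vsig4-positive macrophages carried little class II in any library, and less in the operated ones when UMIs were summed over cells. Summed class II was 349 CPM (301 to 402) at 1 week and 411 CPM (389 to 435) at 2 months, against 645 CPM (624 to 666) in the control, ratios of 0.541 (0.465 to 0.626) and 0.638 (0.597 to 0.680). The 1-week value rests on 38 cells, in which the summed level of 6 endothelial markers was 479 CPM, with 47.9 CPM at 2 months, against 46.6 CPM in the control. The part of those markers was not tested. Cd74 was 219 and 209 CPM against 385 CPM in the control, H2-Eb1 35.3 and 49.9 CPM against 78.3 CPM, and H2-Aa 29.7 and 74.1 CPM against 94.2 CPM. H2-Ab1 was 64.9 and 78.1 CPM against 87.5 CPM in the control, and the intervals of its ratios (0.511 to 1.05 and 0.761 to 1.04) include no difference.

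H2-DMa was nearly level in these cells, at 29.7 and 28.6 CPM against 29.2 CPM in the control, and H2-DMb1 was 22.3 and 17.6 CPM against 27.3 CPM. Ciita had 0 and 2 UMIs against 5 in the control, too few to compare. Of the 6 genes with at least 50 UMIs, H2-Aa and H2-Eb1 were 2-fold lower at 1 week, where 6.7% of genes were, and none was at 2 months, where 3.06% were. None of the 6 was 2-fold higher, where 6.2% of genes were at 1 week and 2.77% at 2 months. A few cells set the level. The 2, 12 and 19 cells with 20 or more class II UMIs at 1 week, at 2 months and in the control held 78.7%, 81.5% and 84.5% of the class II UMIs. The other cells had 74.2 and 76.1 CPM, against 100 CPM in the control. With every cell given equal weight the 2-month difference turned round, to a log2 ratio of 0.45 in place of -0.65. Macrophages with exactly 1 Vsig4 UMI, which belong to neither class, had 126 and 567 CPM in 10 and 28 cells, against 5639 CPM in 76 control cells.

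Other myeloid cells, a gate with markers of granulocytes, monocytes, dendritic cells and osteoclasts, had the highest class II level of the control, and lower levels in both operated libraries. Cd74 was 5267 CPM at 1 week and 2107 CPM at 2 months, against 23351 CPM in the control, ratios of 0.226 (0.222 to 0.229) and 0.0902 (0.0886 to 0.0919). H2-Aa was 2218 and 773 CPM against 6556 CPM in the control, and Ciita 14.6 and 4.81 CPM against 30.4 CPM. All 7 genes were at least 2-fold lower in both comparisons, where 4.51% and 4.97% of all genes were, and 16.3% and 12.4% were 2-fold higher. Summed class II was 11652 and 4368 CPM against 41436 CPM in the control. The control value rests on 117 cells.

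Much of the gate was granulocytes, which carry little class II, and their number differed. Cells with at least 1% of UMIs from S100a8 and S100a9 numbered 483 and 801, against 61 in the control, and the summed level of 5 granulocyte markers was 44784 and 158200 CPM, against 93326 CPM. Without them the operated libraries stood at like levels as a whole, but not in the part of these cells without Ccr2. Summed class II was then 14507 CPM at 1 week (799 cells) and 15444 CPM at 2 months (153 cells), against 65677 CPM in 56 control cells, ratios of 0.221 (0.218 to 0.223) and 0.235 (0.232 to 0.238). All 7 genes were again at least 2-fold lower, where 5% and 3.16% of genes were, and 14.8% and 13.6% were 2-fold higher. H2-Ab1 came nearest to the control at 1 week after Ciita, at 2719 CPM, with 2894 CPM at 2 months, against 8898 CPM in the control (0.306 and 0.325). Ciita was 18.1 and 16.7 CPM against 48.2 CPM in the control (0.375 and 0.346). Split by Ccr2 as above, the remaining cells with a Ccr2 UMI had 22022 and 22821 CPM of summed class II, against 68874 CPM in the control. Those without had 7641 and 842 CPM, against 43973 CPM in the control. Cells with Ccr2 supplied 47.7% and 66.4% of the UMIs of the remaining cells, against 87.2% in the control.

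The share of class II-high cells among the remaining cells differed as well. At 3000 UMIs a cell, 37.3% and 37.2% of them were class II-high, against 73.9% (58.9 to 85.7; 34 of 46) in the control, and the high cells had medians of 154 and 141.5 class II UMIs against 251 in the control. Both the share and the level within high cells were thus lower in the operated libraries. In the whole gate, the summed level of 5 osteoclast markers was 2776 and 1061 CPM, against 456 CPM in the control, where Atp6v0d2 was at 0. The summed level of 7 dendritic cell markers was 231 and 72.0 CPM, against 358 CPM in the control, where Clec9a was at 0. Granulocytes enter both sums, so these sums do not give the makeup of the remaining cells. Of the remaining cells, 86 of 799 and 24 of 153 held a Flt3 UMI, against 14 of 56 in the control. The part of the osteoclast and dendritic cell markers in the difference was not tested. Among cells of the gate with a Flt3 UMI, summed class II was 43835 CPM (86 cells) and 44653 CPM (24 cells), against 72727 CPM in 14 control cells, ratios of 0.603 (0.592 to 0.614) and 0.614 (0.601 to 0.627). There Ciita was 57.0 and 53.5 CPM against 37.6 CPM in the control, with intervals of its ratio (0.716 to 3.69 and 0.605 to 3.71) that include no difference.

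Endothelial cells had class II RNA at levels far below the myeloid classes, with less of it in the operated libraries. Cd74 was 48.0 CPM (45.3 to 50.8) at 1 week and 37.0 CPM (34.3 to 40.0) at 2 months, against 172 CPM (165 to 180) in the control. H2-Aa was 18.4 and 16.1 CPM against 40.7 CPM in the control, H2-Eb1 16.3 and 14.7 CPM against 33.5 CPM, and H2-DMb1 4.37 and 5.43 CPM against 14.1 CPM. H2-Ab1 (21.6 and 18.4 CPM against 33.7 CPM) and H2-DMa (5.01 and 4.87 CPM against 7.82 CPM) were lower by less than 2-fold. Of the 6 genes with enough UMIs, 4 were at least 2-fold lower at 1 week, where 8.38% of genes were, and 4 at 2 months, where 2.82% were. None was 2-fold higher, where 7.7% and 3.72% of genes were. Ciita had 8 and 13 UMIs against 13 in the control. Summed class II was 104 and 86.2 CPM against 280 CPM in the control, ratios of 0.372 (0.353 to 0.391) and 0.308 (0.290 to 0.326).

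The endothelial difference was not the same in cells with and without Selp or Ackr1, genes of venules where leukocytes exit the blood. Cells with either gene were 978 of 1784 at 1 week, 581 of 1157 at 2 months and 445 of 1270 in the control. A gate of 1 UMI need not pick the same vessels in each library, and this was not tested. In cells with Selp or Ackr1, summed class II was 77.6 CPM at 1 week and 110 CPM at 2 months, against 444 CPM in the control. In the other endothelial cells it was 133 and 58.3 CPM against 162 CPM in the control. A few cells set these values, since 6 of the 806 other cells at 1 week held 59.6% of their class II UMIs. Without cells of 20 or more class II UMIs, the Selp or Ackr1 cells had 55.2 and 64.4 CPM against 185 CPM in the control, and the others 53.9 and 48.8 CPM against 84.8 CPM. Cells with 5 or more class II UMIs were 1.53% and 7.57% of the Selp or Ackr1 cells, against 20.2% in the control, and 1.99% and 3.30% of the others, against 2.79%. Those shares come from unthinned cells. Few endothelial cells reached the level of a presenting cell. At 3000 UMIs, 4 of 1753 at 1 week and 0 of 1126 at 2 months, which allows up to 0.266%, had 1% class II UMIs, against 3 of 1113 in the control.

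Fibroblasts had the lowest summed class II of the gated classes, though not the lowest H2-DMb1 in the operated libraries. Summed class II was 60.9 CPM (59.2 to 62.5) at 1 week and 22.5 CPM (21.6 to 23.5) at 2 months, against 63.3 CPM (61.2 to 65.5) in the control. Cd74 was 24.1 and 8.53 CPM against 31.3 CPM in the control, and H2-Aa 9.84 and 3.35 CPM against 9.70 CPM. H2-Ab1 was 16.4 and 5.02 CPM against 8.91 CPM in the control, a ratio of 1.84 (1.66 to 2.05) at 1 week and 0.564 (0.496 to 0.641) at 2 months. None of the 6 genes with enough UMIs was 2-fold lower at 1 week, where 10.6% of genes were, and 3 were at 2 months, where 4.15% were, namely Cd74, H2-Aa and H2-Eb1. None was 2-fold higher, where 11.6% and 5.44% of genes were. Ciita had 7 and 9 UMIs against 4 in the control. The H2-DM genes were not lower. H2-DMa stood at 3.06 and 2.24 CPM against 1.87 CPM in the control, ratios of 1.63 (1.29 to 2.08) and 1.20 (0.944 to 1.53). H2-DMb1 stood at 8.09 CPM (7.50 to 8.72) and 8.35 CPM (7.79 to 8.94), against 8.22 CPM (7.47 to 9.02) in the control, level with Cd74 in the DMM 2 months library.

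RNA set free from broken cells enters every droplet, so the low levels of non-immune cells were set beside those of C1qa, C1qb and C1qc, the macrophage complement genes. Free RNA with the mix of the whole library would keep each class II gene at the library's ratio to C1q. That ratio came from all deposited barcodes, most of which passed the cell filter, and free RNA itself was not measured. Whether fibroblasts held more class II than that depended on the cells kept. Summed class II per C1q UMI was 0.861 (0.826 to 0.898) at 1 week and 0.705 (0.668 to 0.744) at 2 months of the library's own ratio, against 0.917 (0.879 to 0.955) in the control. Without cells that passed several gates it was 1.06 (1.01 to 1.11) and 1.22 (1.15 to 1.30), against 1.77 (1.69 to 1.86) in the control. That removal takes out cells that also passed a macrophage gate, with at least 3 C1qa UMIs. It thus lowers the C1q reference by construction, here and in the values below. Summed class II of fibroblasts thus stood on either side of the free RNA value.

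H2-DMb1 stood above that value in fibroblasts with either set of cells. It was 6.12 (5.64 to 6.64) and 10.9 (10.1 to 11.8) times its ratio to C1q in the library, against 4.90 (4.44 to 5.40) in the control, and H2-DMa was 2.50 and 3.26 times, against 1.47. Without cells of several gates H2-DMb1 was at 8.70 and 19.8 times, against 10.3 in the control. In fibroblasts without a single UMI of Tyrobp, Lyz2 or C1q, H2-DMb1 was still 9.31 and 7.55 CPM, against 8.12 CPM in the control. Summed over all endothelial cells, there was more class II than their C1q would carry. Summed class II was 1.25 (1.17 to 1.34) and 1.55 (1.43 to 1.67) times the library ratio, against 3.32 (3.14 to 3.51) in the control, and 1.34 and 5.96 times, against 5.61, in Selp or Ackr1 cells. In the endothelial cells without these genes it was 1.20 (1.10 to 1.30) and 0.583 (0.521 to 0.652), against 1.83 (1.69 to 1.99) in the control. At 2 months C1q was 112 CPM in these cells and 20.6 CPM in the Selp or Ackr1 cells. It was 75.0 and 38.9 CPM at 1 week, and 159 and 142 CPM in the control. A single pool of free RNA would give both like levels, so the values of the 2 groups in the operated libraries cannot be read against it.

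Those endothelial values depended on which cells were kept. At 1 week 11 of 1784 cells held 47.6% of the class II UMIs. The cells with fewer than 20 class II UMIs contributed 54.6 and 57.3 CPM, against 127 CPM in the control. The C1q of all endothelial cells would carry 83.4 and 55.7 CPM, against 84.4 CPM in the control. Without cells of several classes, summed class II over all endothelial cells was 1.20 and 4.37 times the library ratio, against 6.68 in the control. Endothelial cells without any UMI of Tyrobp, Lyz2 or C1q had 53.8 CPM (326 cells) and 121 CPM (430 cells) of summed class II, against 230 CPM in 391 control cells. The control stood highest in each of these measures. The summed level of 7 macrophage markers in endothelial cells was 62.8 and 67.1 CPM, against 145 CPM in the control, with all 7 detected in each.

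**Figure D4:**
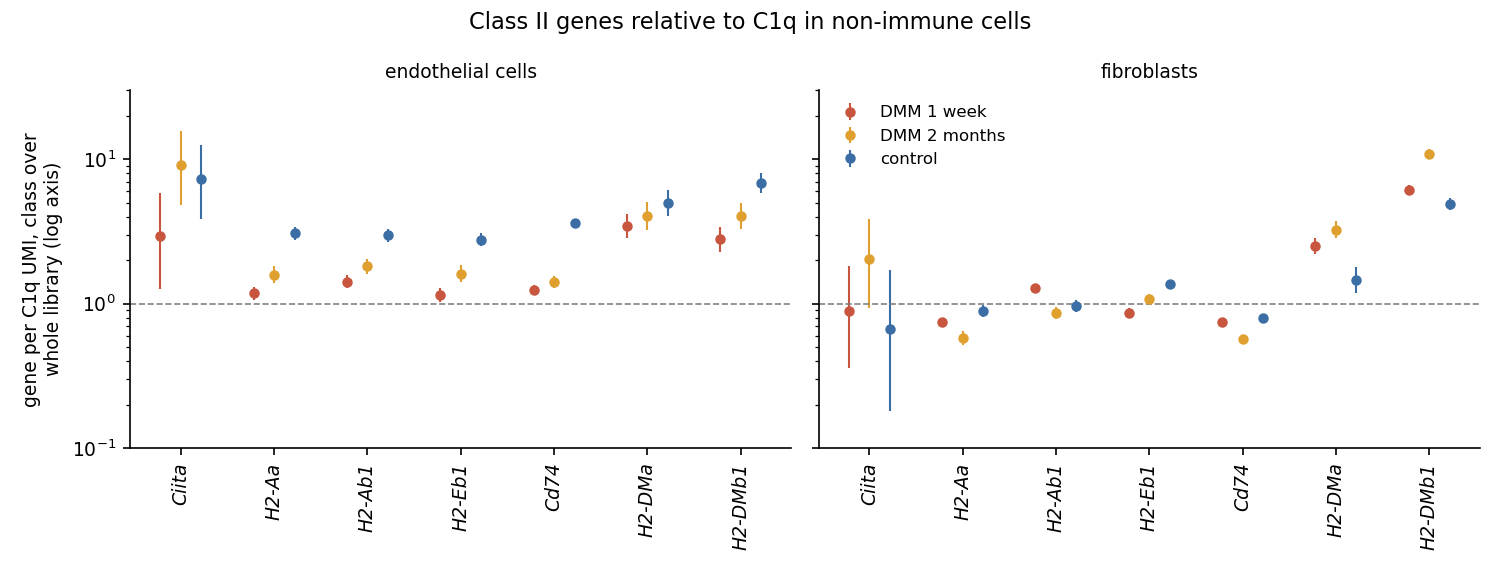
Each class II gene per C1q UMI in endothelial cells and fibroblasts, divided by the same ratio over all barcodes of the library, on a log axis, for the DMM 1 week, DMM 2 months and control libraries. Bars are 95% intervals and the dashed line at 1 is the value that free RNA with the mix of the whole library would give. Fibroblast H2-DMb1 lies well above the line in each library, at 6.12, 10.9 and 4.90, and fibroblast Cd74, with all cells of the gate kept, lies below it, at 0.742, 0.565 and 0.801.

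Between the operated libraries, class II levels of whole classes differed 2-fold mainly in other myeloid cells with granulocytes included and in fibroblasts. In macrophages lacking Vsig4 none of the 7 genes was 2-fold higher or lower at 2 months than at 1 week, where 6.81% and 5.46% of genes were, and H2-Eb1, at 1162 CPM against 1304 CPM at 1 week, had a ratio of 0.891 (0.871 to 0.911). In Vsig4-positive macrophages H2-Aa was 2-fold higher at 2 months, at 2.50 (1.504 to 4.45), and none of the 6 genes compared was 2-fold lower, where 5.67% of genes were higher and 4.14% lower. All 7 genes were 2-fold lower in other myeloid cells at 2 months, where 9.61% of genes were lower and 8.03% higher. Without granulocytes none of the 7 was, in either direction, where 5.5% of genes were higher and 5.67% lower. H2-DMa then had the largest ratio, 301 CPM at 2 months against 224 CPM at 1 week (1.34). In the part of these cells without Ccr2, however, summed class II was 842 CPM at 2 months against 7641 CPM at 1 week (0.110). In the part with Ccr2 it was 22821 against 22022 CPM (1.04).

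In endothelial cells none of 6 genes differed 2-fold between the operated libraries, where 6.93% of genes were higher at 2 months and 5.21% lower. In fibroblasts Cd74, H2-Aa and H2-Ab1 were 2-fold lower at 2 months and none of the 6 was higher, where 8.31% of genes were lower and 8.86% higher. Their H2-Ab1 ratio was 0.306 (0.275 to 0.339), and H2-DMb1 was at 1.03 (0.931 to 1.14).

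The balance between invariant chain and antigen-binding chain differed between operated and control libraries in nearly every class. In macrophages lacking Vsig4 there were 2.50 (2.46 to 2.53) Cd74 UMIs per H2-Aa UMI at 1 week and 2.55 (2.49 to 2.60) at 2 months, against 3.54 (3.41 to 3.68) in the control. Other myeloid cells without granulocytes had 2.37 and 2.72, against 3.56 in the control, and their Flt3 cells 2.22 and 2.60, against 3.30. Cells with and without Ccr2 among macrophages lacking Vsig4 showed the same order, at 2.48 and 2.52 against 3.22 in the control, and at 2.62 and 2.68 against 4.18.

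Endothelial cells had 2.62 and 2.31 Cd74 UMIs per H2-Aa UMI, against 4.23 in the control, and fibroblasts 2.45 and 2.55, against 3.22. All filtered cells together had 2.45 and 2.61, against 3.60. Free RNA in stromal cells would bring in the ratio of the library's free RNA, so their values are not taken as separate evidence. How much of the stromal ratio came from free RNA was not tested. The exceptions were Vsig4-positive macrophages at 1 week, at 7.38 (4.36 to 13.3) from 16 H2-Aa UMIs, against 4.09 in the control, and 2.82 at 2 months. B-lineage cells, with at least 2 Cd79a UMIs, had 3.85 (130 cells) and 3.42 (27 cells), and the control held 2 such cells. With 1 library per group, the operation and the library cannot be told apart here.

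**Figure D5:**
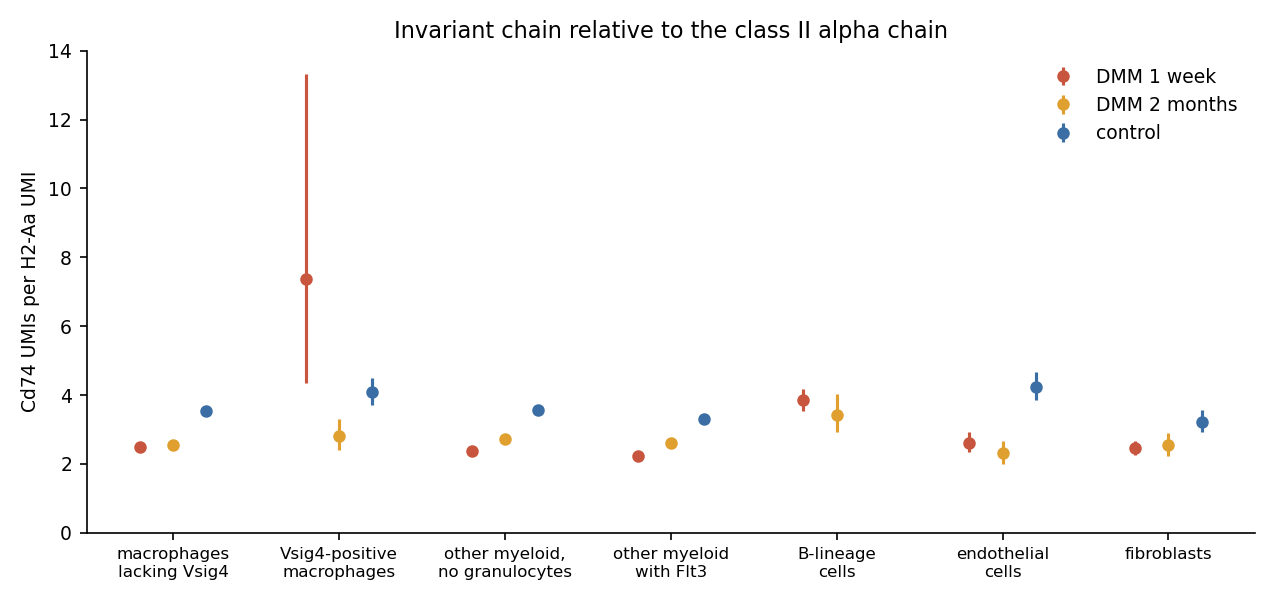
Cd74 UMIs per H2-Aa UMI by cell class in the DMM 1 week, DMM 2 months and control libraries, with exact 95% intervals. The control B-lineage value is not drawn because it rests on 2 cells. The control lies above both operated libraries in 5 of the 6 other classes, and in Vsig4-positive macrophages the 38 cells of DMM 1 week lie at 7.38.

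H2-DM, the peptide editor, has beta chain genes that are near copies of each other, H2-DMb1 and the neighbouring relative H2-DMb2 (34143307 to 34151555, plus strand). Reads that match both may have been dropped or split in counting, so their shares are uncertain. Macrophages lacking Vsig4 used almost only H2-DMb1. H2-DMb2 made up 1.99% and 4.98% of their H2-DM beta UMIs, against 1.63% in the control. Other myeloid cells without granulocytes had 9.55% and 6.85%, against 9.82% in the control. B-lineage cells were the reverse, with 83.5% (74.3 to 90.5; 76 of 91 UMIs) at 1 week and 68.4% (43.5 to 87.4; 13 of 19) at 2 months. In fibroblasts the H2-DMb2 share was 1.43% and 0.610%, against 0.671% in the control. Fibroblasts also had more H2-DMb1 than H2-DMa, 2.65 and 3.72 UMIs per H2-DMa UMI, against 4.40 in the control, where macrophages lacking Vsig4 had 0.952 and 0.796, against 0.851.

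Other genes of the pathway differed by list and by time. In macrophages lacking Vsig4, the 7 genes for the RFX, NF-Y and CREB proteins of the class II promoter had no member 2-fold different at 1 week, and 1 higher at 2 months, Rfx5, the DNA-binding subunit of RFX, at 4.04 and 7.13 CPM against 3.51 CPM in the control. At 2 months 4.04% of all genes were as much higher. Of 7 processing enzymes, 2 were 2-fold higher at 1 week, where 8.62% of all genes were, 1 was at 2 months, and none was lower. Their median log2 ratio was 0.79 at 1 week and 0.11 at 2 months, beside -0.04 and 0.01 over all genes. Ctsd, the aspartic protease cathepsin D, was 2006 and 2045 CPM against 961 CPM in the control, and Ctsh was 507 and 259 CPM against 252 CPM. Ctss, the cathepsin that trims the invariant chain, was 2605 and 1705 CPM against 1565 CPM in the control.

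In the interferon gamma axis of the same cells, 7 of 8 genes had enough UMIs, and Ifng itself had 0 UMIs in every library. The median log2 ratio of the 7 was -0.06 at 1 week and -0.31 at 2 months, beside -0.04 and 0.01 over all genes. Of 8 genes of turnover and co-stimulation, 7 had enough UMIs, and 1 was 2-fold higher and none lower at each time, a count near the 8.62% and 4.04% of all genes. At 1 week this was Cd274, which encodes PD-L1, at 21.1 and 7.71 CPM against 5.46 CPM in the control, and at 2 months it was Icosl, a co-stimulatory ligand, at 11.1 and 15.2 CPM against 6.44 CPM. Cd83, which shields class II from degradation, was 262 and 463 CPM against 464 CPM. The median log2 ratio of the 7 turnover and co-stimulation genes was -0.50 at 1 week and -0.002 at 2 months.

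In other myeloid cells without granulocytes, some relatives and co-stimulators were lower too, where 5% of all genes were 2-fold lower at 1 week and 3.16% at 2 months. Of 4 class II relatives in the files, 2 were at least 2-fold lower at 1 week, and so were both of those with enough UMIs at 2 months, H2-DMb2 at 25.3 and 20.2 CPM against 103 CPM in the control and H2-Ob, a chain of the H2-DM inhibitor H2-O, at 13.9 and 13.1 CPM against 60.6 CPM. Of the turnover and co-stimulation list, 4 of 7 were lower and 1 higher at 1 week, and 3 of 7 lower at 2 months, with Cd83 at 193 and 187 CPM against 603 CPM in the control and Cd40 at 28.0 and 14.5 CPM against 62.2 CPM. Of 7 processing genes, 4 were at least 2-fold higher at 1 week, where 14.8% of all genes were, and none was at 2 months, where 13.6% were. Those at 1 week were lysosomal proteases, among them Lgmn at 397 and 114 CPM against 96.4 CPM in the control and Ctsl at 590 and 347 CPM against 187 CPM. The 7 processing genes had median log2 ratios of 1.48 and 0.25, beside 0.28 and 0.26 over all genes. Ifng was at 5.28 and 6.38 CPM there (47 and 18 UMIs), and the 0 UMIs of the control allow up to 4.66 CPM. The gate did not leave out lymphocytes. With granulocytes included, the summed level of 4 T cell markers in it was 14.1 and 6.28 CPM, against 11.8 CPM in the control. Which cells of the gate held the Ifng UMIs was not tested. In endothelial cells, Irf1 was 180 and 319 CPM against 558 CPM in the control and Socs1, an inhibitor of interferon signalling, was 29.7 and 35.2 CPM against 74.9 CPM, the 2 of 7 interferon gamma genes that were 2-fold lower at 1 week, where 8.38% of all genes were. The median log2 ratio of the 7 was 0.24, beside 0.02 over all genes. At 2 months 1 of the 7 was 2-fold lower, where 2.82% of all genes were, and the median was -0.19, beside 0.06. Fibroblasts also had 2 of 7 lower and 1 higher at 1 week, where 10.6% and 11.6% of all genes were. None of the 6 class II genes compared in fibroblasts was 2-fold lower at that time.

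Among 5088 genes of at least 50 CPM in some class, those whose level followed summed class II most closely over the 15 sums of 5 classes and 3 libraries were Tnip3 (Pearson r = 0.956), Bcl2a1d (0.944), Ccr2 (0.943), Cd52 (0.932) and Clec4a2 (0.925), followed by Gpr132, Cyp4f18, Pim1, Nfkbie and Plaur (0.914 to 0.918). The members H2-DMa (0.985), H2-DMb1 (0.969) and Ciita (0.930) were within or above that range. The sums of a class share a cell type and those of a library share its depth, so these values only describe. Cell by cell among other myeloid cells (1282, 954 and 117 cells), the genes most like summed class II were Ctss (mean r over libraries 0.669), Olfm1 (0.660), Tmem176a (0.659), Ifi30 (0.643) and Tmem176b (0.635), followed by Cd83, Ccr2, Pld4, Cxcl16 and Etv3 (0.601 to 0.633). They stood below H2-DMb1 (0.863) and H2-DMa (0.860) and above Ciita (0.536).

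Most class II RNA of the joint tissue came from myeloid cells in every library. Macrophages lacking Vsig4 supplied 49.99% of the summed class II UMIs at 1 week and 47.2% at 2 months, against 23.1% in the control, and other myeloid cells supplied 37.5% and 35.0%, against 45.0%. Cells of no class supplied 9.43% and 12.8%, against 17.5% in the control, endothelial cells 0.474% and 1.22%, against 3.37%, and fibroblasts 1.27% and 1.64%, against 3.27%. Over all filtered cells summed class II was 1981 and 818 CPM, against 988 CPM in the control. The 2-month value was lower in this sum and not with cells weighted equally. Thinned to 3000 UMIs, the cells averaged 9.99 class II UMIs at 1 week and 3.20 at 2 months, against 3.04 in the control.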

How the data were processed

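Droplet-based single-cell 3′ RNA libraries were made from knee synovium and fat pad, where 0.25% trypsin (30 min) was followed by type I collagenase (300 U/mL, 30 min). Per the labels, live cells were sorted from the collagenase step. The deposited matrices hold UMI counts per gene and barcode, not normalised, written by Cell Ranger 5.0.0 (DMM 1 week and control) and 5.0.1 (DMM 2 months) per the file headers. The submitters' processing notes name Cell Ranger 6.0.1 and mm10. The files held 13986, 10799 and 9003 barcodes and 179561680, 159333121 and 96782789 UMIs for DMM 1 week, DMM 2 months and control.

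The cell filter asked for 500 or more genes and no more than 10% mitochondrial UMIs. Doublets were not removed in the values given, and removal of Scrublet calls (4.12%, 4.70% and 3.86%) was an alternative. UMIs were summed per class and library. Levels have exact Poisson intervals, ratios exact conditional binomial intervals and shares Clopper-Pearson intervals. Genes were compared at 50 or more UMIs in 2 sums. The genes named are the 7 members, listed pathway genes with the largest ratios or a role described, and the leading likeness genes. Thinning used 3000 UMIs, and a count of 0 was read as up to 3. Members, gates and lists were chosen with earlier results of these data known. Scripts were checked on simulated counts. Software was Python 3.11.15, numpy 2.4.6, scipy 1.17.1, pandas 2.3.3, scanpy 1.11.5 and matplotlib 3.10.9. A gene of the interferon gamma list is not reported here.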

Additional observations from a re-analysis of the deposited data

Results flagged for a closer look

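The summed class II level differed from the control in opposite directions between cell classes, and these differences between classes were not tested. At 1 week the log2 ratio over the control was 0.83 in macrophages lacking Vsig4, but -0.89 in Vsig4-positive macrophages, -1.83 in other myeloid cells and -1.43 in endothelial cells. At 2 months it was 0.71 in macrophages lacking Vsig4, but -0.65 in Vsig4-positive macrophages, -3.25 in other myeloid cells, -1.70 in endothelial cells and -1.49 in fibroblasts. Each value compares 1 library with 1 library. The value of Vsig4-positive macrophages at 2 months turned round with cells weighted equally.

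A class II signal was also present in cells that met none of the gates. Their summed class II level at 1 week was 1.11 times that of the control, 1096 CPM against 988 CPM, and it was 909 CPM at 2 months. A few cells set these values: 112 of 2474 cells at 1 week and 27 of 1477 at 2 months held 93.9% and 96.7% of the class II UMIs, against 91.5% in 35 of 1901 control cells. Weighted equally at 3000 UMIs, the cells averaged 4.95 and 2.48 class II UMIs, against 2.73 in the control.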

How the results depend on the processing

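No paired analysis was possible because each group was 1 library and the labels give no replicate numbers. Values are log2 ratios of summed class II over the control, at 1 week and then at 2 months. Over 10 such ratios and 78 alternatives, 75 values kept their direction. The exceptions were Vsig4-positive macrophages at 2 months with cells weighted equally (0.45, against -0.65) and fibroblasts at 1 week in cells without macrophage UMIs (0.03) or under the stricter cell filter (0), against -0.06. In macrophages lacking Vsig4 (0.83 and 0.71), removing Scrublet calls gave 0.89 and 0.75, the stricter cell filter 0.85 and 0.89, stricter gates 0.74 and 0.62, equal weights 1.11 and 0.77, cells without Cdh5 or Pdgfra 0.86 and 0.67, and removal of cells of several classes 0.75 and 0.66. Median-of-ratios scaling gave 0.92 at 1 week. In Vsig4-positive macrophages at 1 week (-0.89), the stricter filter gave -0.66 and cells without Cdh5 or Pdgfra -1.57. In other myeloid cells (-1.83 and -3.25), the same settings gave -1.76 and -3.09 (Scrublet), -1.73 and -3.31 (filter), -1.76 and -3.32 (gates), -1.12 and -2.97 (equal weights), -1.76 and -3.05 (no Cdh5 or Pdgfra) and -2.18 and -2.09 (no granulocytes). Scaling gave -2.03 at 1 week, where it moved all genes by -0.20. In endothelial cells (-1.43 and -1.70), removing Scrublet calls gave -1.64 at 1 week. There stricter gates gave -1.90 and -1.36, equal weights -0.85 and -1.58, cells without macrophage UMIs -2.10 and -0.92, and subtraction of expected free RNA -3.23 and -2.68. Removing cells of several classes gave -1.90 and -1.51, and removing cells with 20 or more class II UMIs -1.27 and -1.19. In fibroblasts (-0.06 and -1.49), stricter gates gave -0.12 at 1 week, equal weights -0.33 and -1.57, cells without macrophage UMIs 0.03 and -1.31, cells of several classes removed -0.16 at 1 week, and cells with 20 or more class II UMIs removed -1.33 at 2 months. Free RNA could not be subtracted in fibroblasts, where the result fell below 0. The last 2 kinds of removal were chosen after seeing the data. Beyond the constructions named, the cause was not tested. Over 69 ratios of single genes and 542 alternatives, 516 values kept their direction. Depth limits Ciita most, and small cell numbers limit the control's other myeloid cells and the Vsig4-positive cells at 1 week.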
